A study of Mus musculus with 6 samples.

Results

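The genes described here are the 7 cyclin-dependent kinase (CDK) inhibitors Cdkn1a, Cdkn1b, Cdkn1c, Cdkn2a, Cdkn2b, Cdkn2c and Cdkn2d, together with Mtap, the metabolic gene next to Cdkn2a. They were taken by gene name from a deposited table of 21801 genes and 59192 transcripts, of which these 8 genes hold 20 transcripts. The cells were B16F10-OVA, a pigmented line of mouse melanoma that expresses ovalbumin, and all 6 libraries came from this line. 3 libraries were of untreated cells and 3 of cells given 50 µM Ac4ManNAz for 5 days with a passage at day 3. Ac4ManNAz is an azide-bearing, acetylated mannosamine that cells convert to sialic acid for click chemistry, and the comparison asks whether this labelling disturbs gene expression. Nothing in the labels tells separate cultures from repeat libraries of 1 culture, so the p-values measure only library-to-library spread, which may be technical.

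CDK inhibitors hold back the kinases that drive a cell from G1 into DNA synthesis. The CIP/KIP proteins p21 (Cdkn1a), p27 (Cdkn1b) and p57 (Cdkn1c) bind complexes of cyclins with CDKs. The INK4 proteins p16 (Cdkn2a), p15 (Cdkn2b), p18 (Cdkn2c) and p19INK4D (Cdkn2d) bind Cdk4 and Cdk6 alone. Cdkn2a also encodes p19ARF, an unrelated protein that frees p53 from Mdm2. The locus that holds Cdkn2a, Cdkn2b and Mtap is often lost in melanoma, and Cdkn2a is the classical gene of inherited melanoma risk. Mtap encodes methylthioadenosine phosphorylase, which salvages a by-product of polyamine synthesis.

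The 2 transcripts of Cdkn2a show how 1 gene makes 2 unrelated proteins, and they are printed because both were listed at 0 in these libraries. The sequences are from GENCODE M21 transcripts on GRCm38, minus strand of chromosome 4, with the last 45 bases of the first exon in lower case and the first 45 bases of exon 2 in capitals. Exon 1 alpha lies at chr4:89281986-89282192, exon 1 beta at chr4:89294334-89294653 and exon 2 at chr4:89276645-89276985. All the bases shown are coding.
Cdkn2a-201 (p16): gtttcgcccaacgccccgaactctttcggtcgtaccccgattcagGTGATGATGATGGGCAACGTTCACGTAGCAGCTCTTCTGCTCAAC
Cdkn2a-202 (p19ARF): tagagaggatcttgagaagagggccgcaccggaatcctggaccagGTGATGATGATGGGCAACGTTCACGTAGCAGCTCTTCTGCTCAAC
The capitals are the same in both lines. In Cdkn2a-201, 126 coding bases precede the junction, which leaves a remainder of 0 after division by 3. In Cdkn2a-202, 190 coding bases precede it, with a remainder of 1, so exon 2 is read in another frame. The transcripts share 575 exonic bases, 67.5% of Cdkn2a-201 and 64.2% of Cdkn2a-202.

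Levels are in FPKM, fragments per kilobase of transcript, scaled to library size, as the authors deposited them. The table holds no counts, so the depth is unknown and no limit of detection is given. The summed FPKM per library ranged from 310003 to 347126, and 13912 to 18974 genes were listed above 0. All 7 melanocyte markers (Pmel, Tyr, Tyrp1, Dct, Mlana, Mitf and Sox10) reached 1 FPKM, with sums of 7636 to 9313 FPKM in untreated and 7431 to 9093 FPKM in treated libraries. Markers of other cells reached 1 FPKM in at least 1 library for 1 of 7 fibroblast, 2 of 6 leukocyte, 2 of 5 endothelial and 0 of 5 keratinocyte genes. Each of these lists summed to at most 5.77 FPKM in any library, and 0 of their genes were at 0 in all 6. In bulk RNA, fewer cells that express a gene and less RNA of it per cell cannot be told apart.

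The 8 genes differed widely in level. Mtap averaged 84.4 FPKM over the 6 libraries and lay above every other member in every library. Cdkn2c followed at 34.0 FPKM. Cdkn1a at 19.9, Cdkn1b at 19.3 and Cdkn2d at 18.1 FPKM did not differ in level beyond the spread of their libraries, with Cdkn1a above Cdkn1b in 3 of 6 libraries and Cdkn1b above Cdkn2d in 4 of 6. Cdkn2c was above Cdkn1a in 6 of 6 libraries, although the highest Cdkn1a value (32.6 FPKM) exceeded the lowest Cdkn2c value (29.0 FPKM). Cdkn1c averaged 0.0151 FPKM, and Cdkn2a and Cdkn2b were listed at 0 in all 6 libraries.

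**Figure D1:**
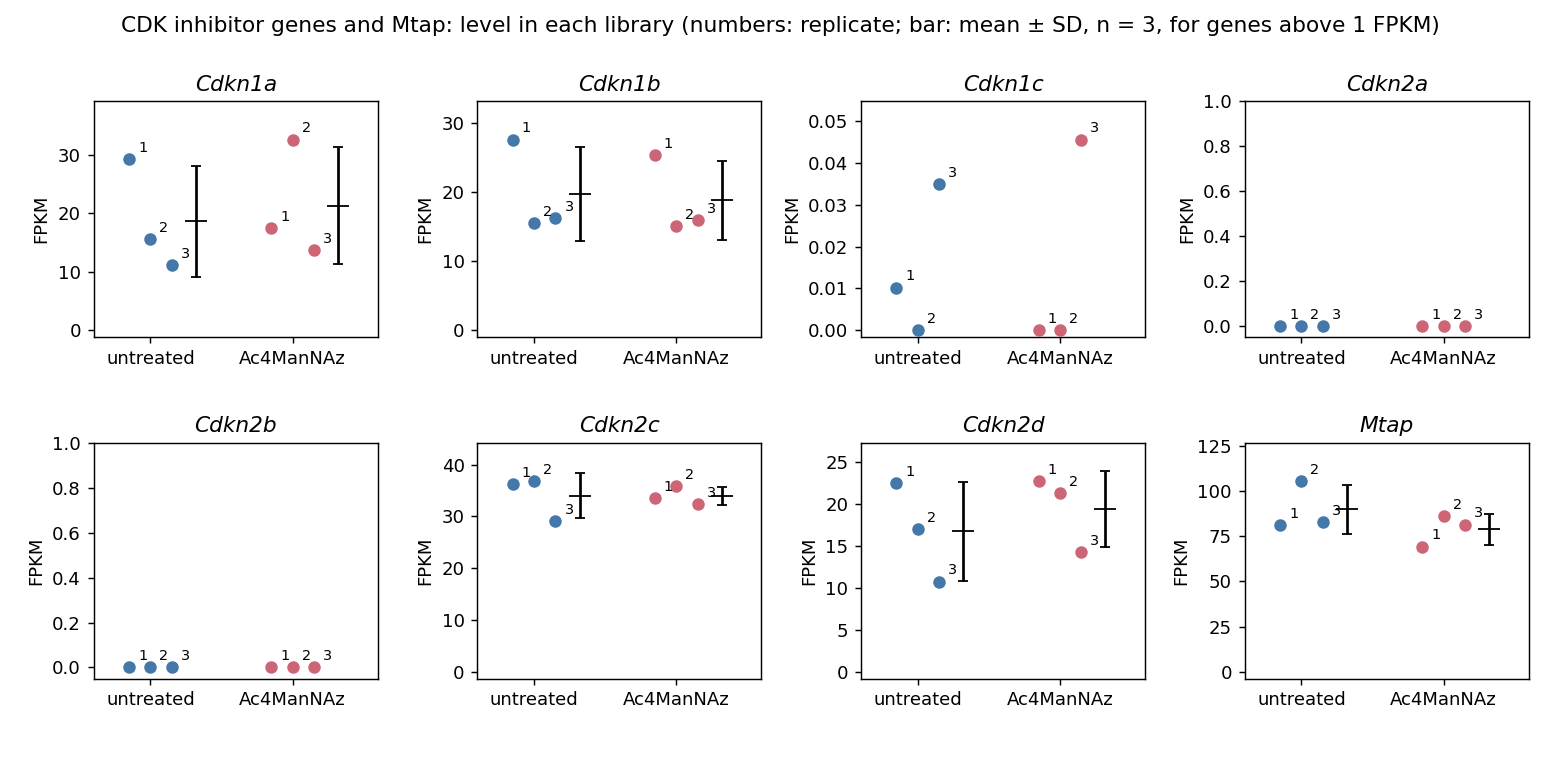
Level (FPKM, linear axis) of each of the 8 genes in the 3 untreated (blue) and 3 Ac4ManNAz (red) libraries, numbered by replicate, with the group mean ± SD for genes above 1 FPKM. Treated and untreated libraries overlap for the 5 genes that are above 1 FPKM, and Cdkn2a and Cdkn2b sit at 0 throughout.

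After 5 days of Ac4ManNAz, none of the 5 members that could be tested passed the test. limma with Benjamini-Hochberg adjustment over the 9925 genes averaging 1 FPKM or more called 0 of these 5 genes, where it called 0 genes in all (0%), and the adjusted p was 0.9998 for each member. An unadjusted p under 0.05 was reached by 0 of the 5 members and by 177 of all tested genes (1.78%). Treated and untreated values overlapped for 5 of the 5, and they were separate for 576 of the 9925 genes (5.8%). By the mean of log2(FPKM + 1), as in all such counts below, 3 members averaged higher and 2 lower in treated cells. Cdkn2c counted as higher by 0.0036 on that scale, but its mean FPKM was 34.02 untreated and 33.95 treated. The median difference of the 5 members on the log2(FPKM + 1) scale was 0.0036, beside -0.0014 for all tested genes. Cdkn1c, Cdkn2a and Cdkn2b had a mean under 1 FPKM and were not in this fit.

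Cdkn1a (chromosome 17, 29309953 to 29319701 as deposited) encodes p21, the main CDK inhibitor induced by p53. It had 29.2, 15.5 and 11.1 FPKM in untreated replicates 1 to 3 against 17.4, 32.6 and 13.7 FPKM in treated replicates 1 to 3. Untreated replicate 1 and treated replicate 2 were high, and the other 4 libraries lay between 11.1 and 17.4 FPKM. Its group means were 18.6 ± 9.46 FPKM untreated and 21.2 ± 9.995 FPKM treated (mean ± SD, n = 3; values written this way below follow the same form, untreated first). On the log2(FPKM + 1) scale, which understates changes of low genes, the difference was 0.20 ± 0.41 (SE), with a 95% interval from -0.76 to 1.16, or 0.589-fold to 2.23-fold. The direction rested on single libraries, since the value was -0.10 without untreated replicate 3 and -0.15 without treated replicate 2. Among the 9925 tested genes, Cdkn1a had a larger standard deviation over the 6 libraries than 95.1%.

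Cdkn1a is annotated with several starts, and the share of its transcripts differed between libraries. Cdkn1a-201 held 73.1% to 90.5% of the gene's FPKM in each library. Cdkn1a-202, which starts upstream, held 22.0%, 18.96% and 12.6% in untreated and 25.4%, 10.6% and 4.88% in treated replicates 1 to 3. Cdkn1a-202 had 6.42, 2.94 and 1.39 FPKM untreated against 4.42, 3.46 and 0.669 FPKM treated. Replicate 3 of each group was the lowest and the groups overlapped. Cdkn1a-203 was listed at 0.245 to 1.13 FPKM and Cdkn1a-205 at 0.0019 to 0.125 FPKM. All 4 transcripts have the same 477 coding bases in GENCODE M21, so they differ outside the coding sequence. Cdkn1a-201 and Cdkn1a-202 share 799 bases, 41.8% of Cdkn1a-201 and 86.7% of Cdkn1a-202. Their split therefore also depends on how the authors' software assigned shared fragments.

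The 250 bases before the starts of Cdkn1a-201 and Cdkn1a-202 are shown because these transcripts hold most of the listed FPKM of the gene. Use of the starts themselves was not measured. They are RefSeq sequences on GRCm38.p6, plus strand, at chr17:29093519-29093768 for Cdkn1a-201 and chr17:29090729-29090978 for Cdkn1a-202. Capitals mark GC boxes (GGGCGG or its reverse complement CCGCCC on either strand).
Before Cdkn1a-201: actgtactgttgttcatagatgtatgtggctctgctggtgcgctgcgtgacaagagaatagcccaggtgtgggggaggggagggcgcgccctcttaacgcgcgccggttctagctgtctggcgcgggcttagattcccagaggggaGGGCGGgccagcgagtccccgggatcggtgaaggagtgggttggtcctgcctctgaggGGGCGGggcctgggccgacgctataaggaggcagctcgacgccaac
Before Cdkn1a-202: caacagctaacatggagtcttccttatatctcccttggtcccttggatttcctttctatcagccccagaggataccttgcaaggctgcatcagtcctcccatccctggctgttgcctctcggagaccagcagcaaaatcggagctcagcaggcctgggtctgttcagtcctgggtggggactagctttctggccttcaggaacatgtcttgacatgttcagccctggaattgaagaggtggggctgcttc
The window before Cdkn1a-201 holds 2 GC boxes and 19 CpG dinucleotides, and the window before Cdkn1a-202 holds 0 GC boxes and 2 CpG. Among 32851 promoter windows of the same length, 32.7% hold a GC box and the median CpG count is 6. A TATA box (TATAAA or TTTATA) is in 12.4% of these windows and in 0 of these 2. These are matches of letters, and binding was not measured.

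Cdkn1b (chromosome 6, 134897364 to 134902476) encodes p27, which holds resting cells in G1. It had 27.7, 15.5 and 16.3 FPKM in the untreated replicates against 25.4, 15.1 and 15.998 FPKM in the Ac4ManNAz replicates. Replicate 1 was the highest library of each group, and the other 4 libraries lay within 15.1 to 16.3 FPKM. The group means were 19.8 ± 6.82 and 18.8 ± 5.73 FPKM, a log2 difference of -0.06 ± 0.27 and a 95% interval from -0.70 to 0.59. Its direction changed without untreated replicate 1 (0.20), treated replicate 2 (0.07) or treated replicate 3 (0.03).

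The 3 transcripts of Cdkn1b all had their highest values in the replicate 1 libraries. Cdkn1b-201 stood at 16.1 and 15.03 FPKM in untreated and treated replicate 1 and at 8.27 to 9.26 FPKM in the other libraries. Cdkn1b-202, which keeps an intron that Cdkn1b-201 splices out, stood at 7.78 and 6.69 FPKM against 4.56 to 5.72 FPKM. Cdkn1b-203 stood at 3.77 and 3.71 FPKM against 1.85 to 2.41 FPKM. The coding sequence of 591 bases is the same in the 3 transcripts, and all 2393 bases of Cdkn1b-201 lie within Cdkn1b-202, so their split depends on how the authors' software assigned shared fragments.

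Cdkn1c (chromosome 7, 143012076 to 143014787) encodes p57, an imprinted inhibitor of embryonic tissues. It had 0.010, 0 and 0.035 FPKM in the untreated replicates against 0, 0 and 0.046 FPKM in the Ac4ManNAz replicates. The 3 libraries above 0 were untreated replicates 1 and 3 and treated replicate 3. These 3 also listed the most genes above 0, at 16818, 18143 and 18974, beside 13912 to 15682 in the other libraries. The exact two-sided permutation p was 1, where 3 against 3 libraries cannot go below 0.1. Cdkn1c-201 gave the value in untreated replicate 1 and treated replicate 3, Cdkn1c-202 gave it in untreated replicate 3, and Cdkn1c-203 and Cdkn1c-205 were at 0 in all 6. Of 4 tested genes from a list of its imprinted neighbourhood, 0 passed and 1 averaged higher. Of these, Tssc4 had 7.11 ± 0.321 and 6.54 ± 0.536 FPKM, and the transporter gene Slc22a18 had 3.31 ± 3.17 and 3.78 ± 1.76 FPKM.

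Among the INK4 genes, Cdkn2c and Cdkn2d carried all of the listed signal. Summed over the family, INK4 FPKM was 58.7, 53.8 and 39.8 in untreated and 56.3, 57.1 and 46.7 in treated libraries. The CIP/KIP sum was 56.9, 31.0 and 27.4 in untreated and 42.8, 47.6 and 29.8 in treated libraries. Replicate 3 had the lowest sum of both families in each group. For scale, Cdk4 and Cdk6, the kinases that INK4 proteins bind, summed to 118 to 138 FPKM, most of it Cdk4.

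Cdkn2c (chromosome 4, 109518073 to 109524386) encodes p18, an INK4 inhibitor of Cdk4 and Cdk6. It had 36.2, 36.8 and 29.0 FPKM in the untreated replicates against 33.6, 35.8 and 32.4 FPKM in the Ac4ManNAz replicates. All treated values lay inside the untreated range. The group means of 34.0 ± 4.33 and 33.9 ± 1.72 FPKM gave a log2 difference of 0.00 ± 0.12, and its 95% interval from -0.28 to 0.29, or 0.823-fold to 1.22-fold, was the narrowest of the 5. Cdkn2c-202, which starts further upstream, held 78.4% to 82.5% of the gene in every library, and Cdkn2c-201 held 17.5% to 21.6%. Both have the same 504 coding bases. This was the steadiest split among the 4 inhibitor genes above 1 FPKM, each of which has several transcripts. Since the 2 transcripts of Cdkn2c share their coding bases, their split also depends on how the authors' software assigned shared fragments.

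Cdkn2d (chromosome 9, 21199706 to 21202703) encodes p19INK4D, an INK4 inhibitor that is not related to p19ARF. It had 22.5, 17.0 and 10.7 FPKM in the untreated replicates against 22.7, 21.3 and 14.2 FPKM in the Ac4ManNAz replicates. Replicate 3 was the lowest in each group, and the groups overlapped. The means were 16.7 ± 5.88 and 19.4 ± 4.53 FPKM, a log2 difference of 0.23 ± 0.28 and a 95% interval from -0.43 to 0.90. The value was -0.04 without untreated replicate 3.

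The transcripts of Cdkn2d changed their shares between libraries more than those of Cdkn2c. A junction at which the 2 main ones differ is printed here. The sequences are from GENCODE M21 transcripts on GRCm38, minus strand of chromosome 9. The last 45 bases of the first exon, the same in both, are in lower case and the first bases of the following exon in capitals. Cdkn2d-203 continues into the exon at chr9:21288410-21289332. Cdkn2d-201 first reads an extra exon of 52 bases at chr9:21290425-21290476, shown up to its stop codon.
Cdkn2d-203: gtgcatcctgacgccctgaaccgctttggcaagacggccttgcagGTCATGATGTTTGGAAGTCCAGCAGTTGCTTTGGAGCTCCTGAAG
Cdkn2d-201: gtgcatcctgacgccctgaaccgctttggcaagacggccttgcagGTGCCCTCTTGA
The extra exon adds 9 coding bases and then the stop codon TGA, so the coding sequence is 150 bases in Cdkn2d-201 and 498 bases in Cdkn2d-203. The 2 transcripts share 1212 bases, 95.9% of Cdkn2d-201 and 85.2% of Cdkn2d-203. Their first exons are 345 and 500 bases long, so the extra exon is not their only difference. The split between them depends on how the authors' software assigned shared fragments.

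Cdkn2d-201, the shorter reading frame, had 0, 8.18 and 0.010 FPKM in the untreated replicates against 0.00073, 0.662 and 3.08 FPKM in the Ac4ManNAz replicates. It held 48.1% of the gene in untreated replicate 2 and 21.6% in treated replicate 3, and at most 3.11% in the other 4 libraries. Cdkn2d-203 had 22.0, 7.53 and 10.3 FPKM in the untreated replicates against 22.7, 20.6 and 10.9 FPKM in the Ac4ManNAz replicates. It was lowest where Cdkn2d-201 was highest, in untreated replicate 2. Cdkn2d-202, whose coding sequence is incomplete in the annotation, had 0.520, 1.30 and 0.412 FPKM in the untreated replicates against 0, 0 and 0.217 FPKM in the Ac4ManNAz replicates. Its treated values all lay below the untreated ones, but its mean was under 1 FPKM and it was not tested. Separation in either direction was seen for 6.39% of the tested transcripts. The share among transcripts under 1 FPKM was not computed.

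**Figure D2:**
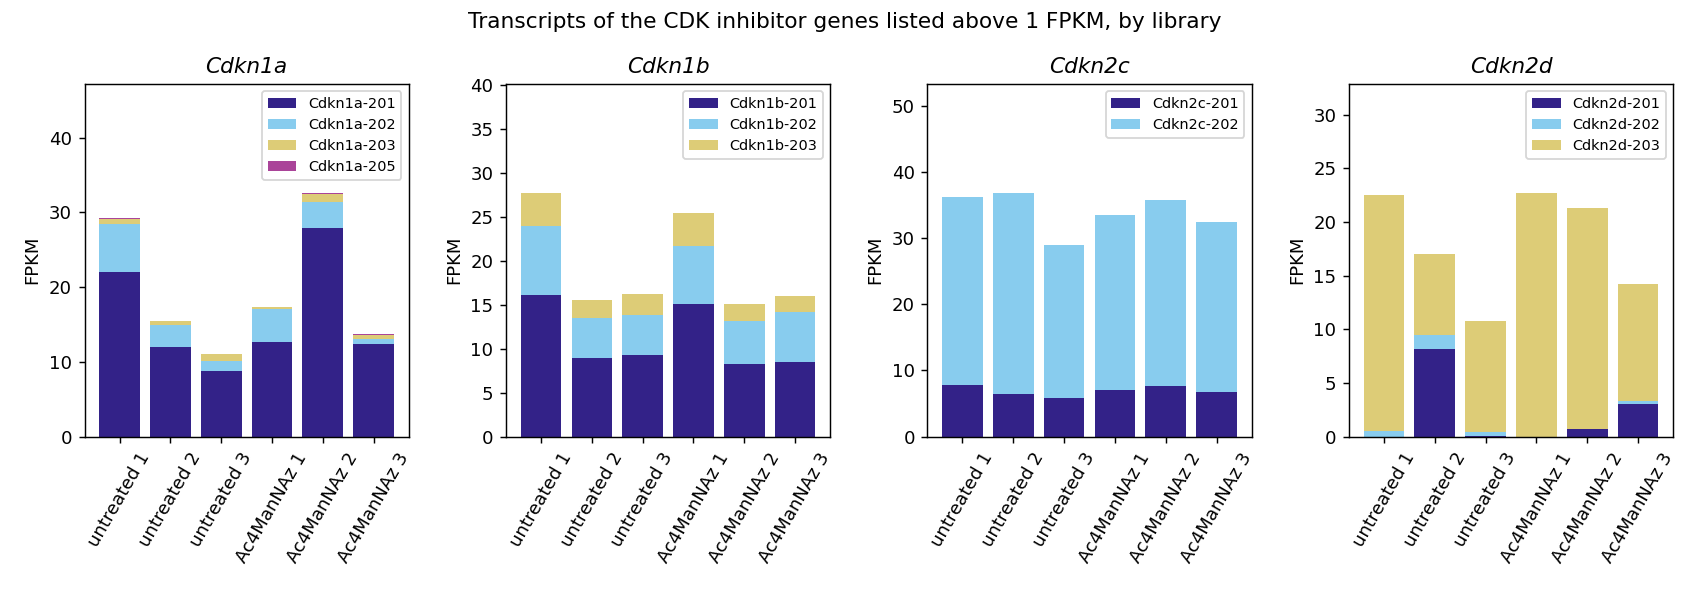
FPKM of each listed transcript, stacked to the gene total, in the 6 libraries for Cdkn1a, Cdkn1b, Cdkn2c and Cdkn2d. The Cdkn2c split is even from library to library, whereas Cdkn2d-201 takes 48.1% of its gene in untreated replicate 2 and 0% in untreated replicate 1.

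Of the 20 member transcripts, 10 had a mean of at least 1 FPKM and were tested with limma among 14846 transcripts. 0 of the 10 passed after Benjamini-Hochberg adjustment, where 9 transcripts of the whole table did (0.0606%), and the lowest adjusted p among the 10 was 0.9998. 0 of the 10 had an unadjusted p under 0.05, beside 2.54% of all tested transcripts, and 0 had groups that did not overlap, beside 6.39%. 4 averaged higher and 6 lower in treated cells, with a median log2 difference of -0.06, beside -0.0040 for all tested transcripts. The widest 95% interval was that of Cdkn2d-201, from -2.65 to 2.35, and that of Cdkn2d-203 ran from -0.60 to 1.57.

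**Figure D3:**
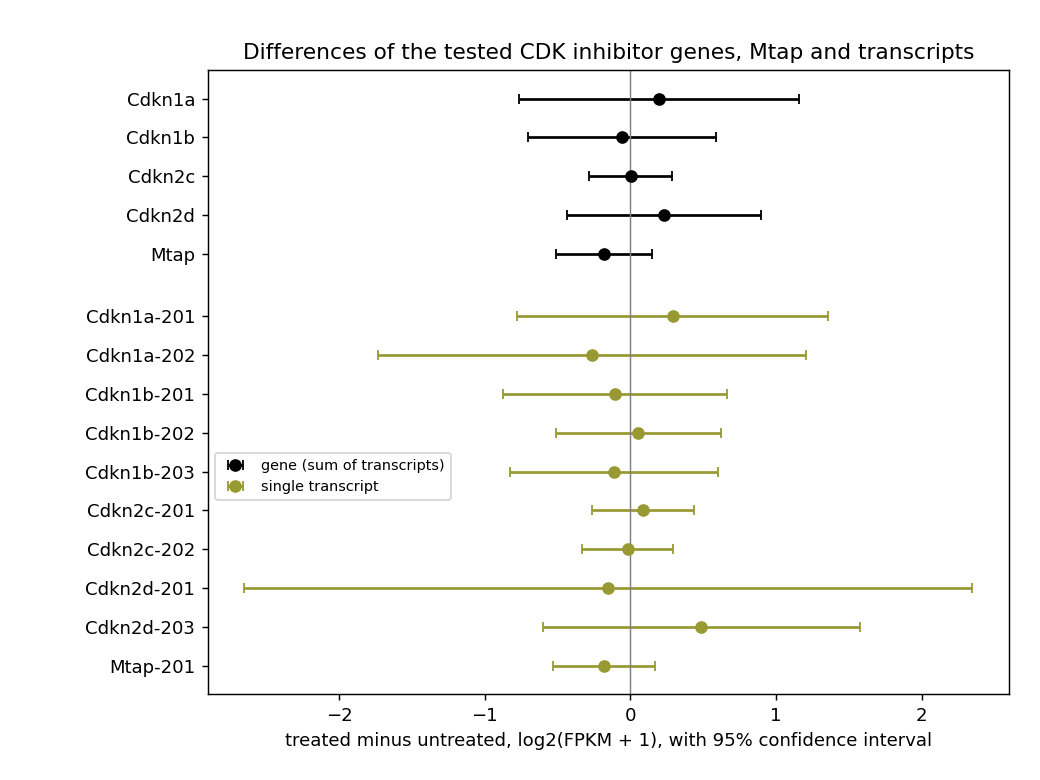
Treated minus untreated difference on the log2(FPKM + 1) scale with its 95% confidence interval from limma, for the 5 tested genes (black) and their 10 tested transcripts (olive). Every interval spans 0, and the interval of Cdkn2d-201 is the widest.

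Cdkn2a (ENSMUSG00000044303, chromosome 4, 89192708 to 89212890 as deposited, build not given in the sources used here) was listed at 0 FPKM for both Cdkn2a-201 and Cdkn2a-202 in all 6 libraries. Cdkn2b-201, the 1 listed transcript of Cdkn2b (chromosome 4, 89224536 to 89229276), was also at 0 in all 6. The table lists 1449 genes, or 6.65%, at 0 in every library. With all values at 0, no difference between treated and untreated cells could be computed for either gene.

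The table writes 0 in 2 ways, and the neighbours Cdkn2a and Cdkn2b differed in this. All 12 values of the 2 Cdkn2a transcripts are written 0.0, and all 6 values of Cdkn2b-201 are written 0.000000. Of 15135 transcripts at 0 in every library, 593, or 3.92%, are written 0.0 in all 6 libraries. Where a gene with several transcripts has 1 written 0.0 in a library, all its transcripts are written so in 10018 of 10019 cases. For Cdkn1c the 4 transcripts are written 0.0 in treated replicates 1 and 2 and otherwise with 6 decimals. The sources used here do not say what the 2 forms mean.

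Mtap (chromosome 4, 89055359 to 89099318 as deposited) ends 93389 bases from Cdkn2a, and it was the most abundant member. It had 81.3, 105 and 83.0 FPKM in the untreated replicates against 69.3, 85.98 and 81.4 FPKM in the Ac4ManNAz replicates. Untreated replicate 2 was the highest and treated replicate 1 the lowest, with overlap between the groups. The means were 89.9 ± 13.5 and 78.9 ± 8.64 FPKM, a log2 difference of -0.18 ± 0.14 and a 95% interval from -0.51 to 0.15, or 0.701-fold to 1.11-fold. The value stayed below 0 when any 1 library was left out, from -0.25 to -0.06.

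Within 500 kb of Cdkn2a the table holds 19 other genes besides Mtap and Cdkn2b, and 0 of them reached 1 FPKM. 18 of the 19 lie beyond Mtap among the type I interferon genes, which are close copies of each other, so their single values are uncertain. The 5 neighbours that reached 0.1 FPKM in any library were Gm13272, Ifnz, Gm13276, Gm13277 and Gm13285, with a highest value of 0.248 FPKM for Gm13272 in untreated replicate 3. On the other side, the transcription factor gene Dmrta1 reached 0.0076 FPKM. The nearest genes averaging 1 FPKM or more, a window chosen after the values were seen, were Klhl9 and Gm26566 on the Mtap side, about 552 kb from Cdkn2a, and Caap1 on the other side, 5175 kb away. Klhl9, an adaptor of a ubiquitin ligase, had 34.6 ± 3.66 FPKM in untreated and 35.2 ± 2.60 FPKM in treated cells. Between Mtap and Caap1 the table lists 8 genes over 5.29 Mb. Cdkn2a and Cdkn2b were the 2 at 0 in all 6 libraries, Dmrta1, Zfp352, Elavl2, Izumo3 and Tusc1 stayed under 0.1 FPKM, and Gm12666 reached 0.544 FPKM. DNA was not measured, so whether the cells carry the locus was not tested.

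**Figure D4:**
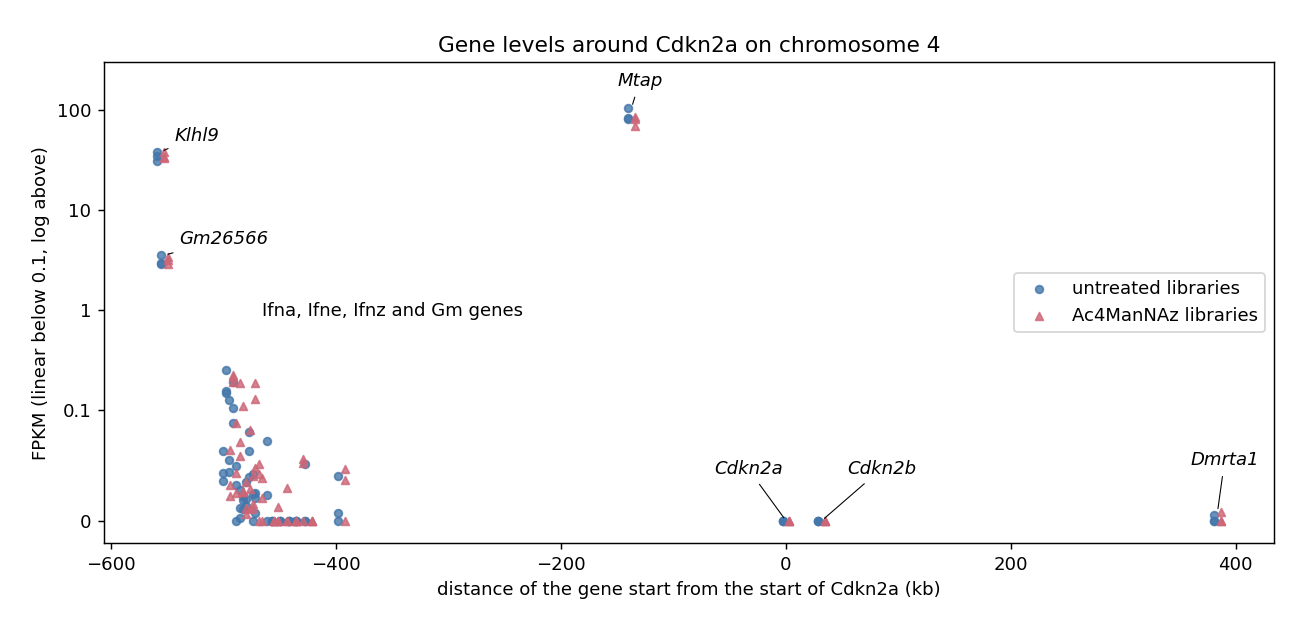
FPKM of genes around Cdkn2a on chromosome 4 (axis linear below 0.1 FPKM and logarithmic above) against the distance of their start from that of Cdkn2a in kb, in untreated (circles) and Ac4ManNAz (triangles) libraries, which are shifted sideways from each other for legibility. Mtap stands at 69.3 to 105 FPKM, whereas Cdkn2a and Cdkn2b are at 0 in all 6 libraries.

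The genes through which the inhibitors act or are controlled were described from 9 lists of 104 symbols, of which 100 were in the table and 88 were tested. After Benjamini-Hochberg adjustment, limma called 0 of the 88, where it called 0 genes in all (0%). An unadjusted p under 0.05 was reached by 1 of the 88, beside 1.78% of all tested genes. Complete separation with treated cells higher was seen for 0 of the 88, beside 2.1% of all tested genes, and with treated cells lower for 4, beside 3.71%. The 4 were Ubtf and Enoph1, described below, and Cul4b and Clns1a, named after their values were seen. Cul4b, a scaffold of ubiquitin ligases, had 23.7 ± 0.986 and 22.3 ± 0.266 FPKM, and Clns1a, a partner of Prmt5, had 87.99 ± 1.55 and 80.2 ± 6.36 FPKM. By the mean of log2(FPKM + 1), 31 averaged higher and 57 lower, with a median log2 difference of -0.06, beside -0.0014 for all tested genes. The 2 genes with the smallest unadjusted p of each list are given next, and none of them passed.

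Among the targets of the inhibitors, 0 of 12 CDK and cyclin genes passed and 4 averaged higher. Cdk1, the mitotic kinase, had 50.01 ± 6.95 FPKM in untreated and 43.8 ± 2.81 FPKM in treated cells. Ccna2, the S phase cyclin, had 115.7 ± 12.3 and 102.8 ± 13.1 FPKM. Among 11 tested Rb and E2F genes 6 averaged higher, with the E2F partner Tfdp1 at 100.8 ± 11.6 and 84.2 ± 13.02 FPKM and the repressor E2f6 at 1.91 ± 0.886 and 1.33 ± 0.107 FPKM.

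The genes around ARF and p53 were 7, of which 2 averaged higher. Ubtf, a transcription factor of RNA polymerase I, had 33.4, 43.3 and 39.9 FPKM in the untreated replicates against 30.2, 27.8 and 31.9 FPKM in the Ac4ManNAz replicates. It was the 1 gene of the lists with an unadjusted p under 0.05 (limma adjusted p = 0.9998), at a log2 difference of -0.36 ± 0.12, and its treated values all lay below the untreated ones. Huwe1, a ubiquitin ligase that ARF binds, had 4.58 ± 0.122 and 7.02 ± 3.63 FPKM. Trp53 and Mdm2, the targets of the ARF pathway, are given for context by choice and not by the rule. Trp53 stood at 10.2 to 15.8 FPKM and Mdm2 at 4.93 to 7.45 FPKM over the 6 libraries, while Cdkn2a itself was at 0.

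Of 12 tested genes that degrade p27 and p21, 4 averaged higher. Cks1b, the cofactor through which Skp2 recognises p27, had 43.1 ± 6.89 and 37.7 ± 2.78 FPKM, and the p27 ligase gene Rnf123 had 1.85 ± 0.345 and 2.52 ± 0.938 FPKM. Of 10 transcription factors of the inhibitor genes 4 averaged higher. Myc had 1.95 ± 0.646 and 2.74 ± 0.978 FPKM, and Foxo3, an activator of Cdkn1b, had 5.38 ± 0.948 and 6.44 ± 1.95 FPKM.

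Polycomb proteins silence the Cdkn2a locus in many cell types, and 14 of their genes were tested, of which 6 averaged higher. Suz12 had 20.1 ± 7.27 and 15.4 ± 0.341 FPKM, with untreated replicate 1 at 28.4 FPKM and the other 5 libraries between 14.99 and 16.8 FPKM. Ezh1 had 7.24 ± 1.80 and 8.27 ± 1.14 FPKM. Bmi1, the classical repressor of Cdkn2a, is named here by choice and ranged from 62.0 to 68.3 FPKM over the 6 libraries.

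Of 15 tested genes of methylthioadenosine salvage, polyamine synthesis and the Prmt5 complex that methylthioadenosine inhibits, 3 averaged higher and 12 lower, with a median log2 difference of -0.14. Wdr77, the partner of Prmt5, had 6.82, 21.2 and 9.65 FPKM in the untreated replicates against 7.38, 1.92 and 6.42 FPKM in the Ac4ManNAz replicates, with overlap. Enoph1, a methionine salvage enzyme downstream of Mtap, had 16.2 ± 0.942 and 13.4 ± 2.14 FPKM, and its treated values all lay below the untreated ones. Its log2 difference was -0.27 ± 0.14 (limma adjusted p = 0.9998). Of the 3 other genes named after CDK inhibitors, Cdkn3, a phosphatase of CDKs, had 4.86 ± 1.13 and 4.5959 ± 0.165 FPKM, and Cdkn2aipnl had 64.8 ± 5.04 and 61.8 ± 3.15 FPKM.

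Cdkn1a and Cdkn2d were the tested members that varied most over the 6 libraries, and the genes with the nearest pattern were found by the root mean square difference of centred log2(FPKM + 1) values over those 6 libraries. Nearest to Cdkn1a among 9925 genes were Gm27021 (0.12) and Fgf1 (0.13), a growth factor gene. Fgf1 had 8.56, 4.04 and 2.19 FPKM in the untreated replicates against 4.29, 7.30 and 3.58 FPKM in the Ac4ManNAz replicates, high in the same libraries as Cdkn1a. Nearest to Cdkn2d were Sema7a (0.09) and Agtrap (0.09). Agtrap, whose product binds the angiotensin receptor, had 7.70, 5.30 and 3.33 FPKM in the untreated replicates against 7.60, 6.12 and 5.03 FPKM in the Ac4ManNAz replicates. These are descriptions over 6 libraries, with no test.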

How the data were processed

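Total RNA of 6 B16F10-OVA samples was depleted of ribosomal RNA and sequenced as strand-specific libraries, per the labels' protocols. The authors deposited transcript FPKM values in 1 table of 59192 transcripts. The aligner, quantifier, genome build and annotation were not given in the sources used here, and positions are printed as deposited.

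FPKM of a gene is the sum over its transcripts. Genes or transcripts averaging at least 1 FPKM were tested with limma 3.58.1 (R 4.3.3, empirical Bayes with a trend) on log2(FPKM + 1), treated against untreated, with Benjamini-Hochberg adjustment at 0.05 over all features tested. Since FPKM carry no counts, count models were left out. Cdkn1c was tested by an exact two-sided permutation test. Exon structures and sequences came from GENCODE M21 and a RefSeq promoter table, both on GRCm38, whose positions differ from those of the table. All 20 member transcripts were matched by transcript identifier.

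The members and gene lists were chosen with earlier results of these data known. Named are all members with their transcripts, the 2 tested genes of smallest unadjusted p per list, every gene starting within 500 kb of Cdkn2a that reaches 0.1 FPKM, and the 2 genes with the nearest pattern to each of the 2 most variable members. Exceptions are stated in the text. Alternatives were another pseudocount, other filters, equal sums, median centring, the most abundant transcript, limma without the trend, a replicate block and leaving out each library.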

Additional observations from a re-analysis of the deposited data

How the results depend on the processing

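In 196 alternative fits of single members, 0 passed the threshold, with a lowest limma adjusted p of 0.831, and 27 changed direction, 24 of them by leaving out 1 library. The other 3 were Cdkn2c by its most abundant transcript (-0.019), Cdkn2c-202 with equal sums (0.028) and Cdkn2d-201 with a pseudocount of 0.1 (0.47). Without 1 library, log2 differences ran from -0.15 to 0.56 for Cdkn1a, -0.28 to 0.20 for Cdkn1b, -0.10 to 0.063 for Cdkn2c, -0.038 to 0.46 for Cdkn2d and -0.25 to -0.06 for Mtap. For transcripts they ran from -0.073 to 0.64 (Cdkn1a-201), -0.66 to 0.25 (Cdkn1a-202), -0.36 to 0.15 (Cdkn1b-201), -0.058 to 0.27 (Cdkn1b-202), -0.35 to 0.081 (Cdkn1b-203), -0.13 to 0.060 (Cdkn2c-202) and -0.70 to 0.31 (Cdkn2d-201). The 3 tested transcripts that kept their direction ran from 0.0068 to 0.19 (Cdkn2c-201), 0.18 to 0.90 (Cdkn2d-203) and -0.25 to -0.063 (Mtap-201). Over all genes, 0 were called, 4 by the most abundant transcript and 0 to 1 without 1 library, the 1 being without Ac4ManNAz replicate 2. Over all transcripts, 9 were called, 2 at a mean of at least 5 FPKM, 15 without the trend and 4 to 14 without 1 library. The causes were not tested. Same-numbered libraries had correlations of deviations of 0.0643, 0.0188 and 0.261, and those of unlike number ran from -0.174 to 0.0839. The value of replicate 3 was the highest of all pairs. The other same-numbered values, 0.0643 and 0.0188, lay within the range of the pairs of unlike number. These values do not settle whether the numbers pair the libraries, and the main fit did not pair them. Not every library was nearest its own number. With the replicate block, 0 genes and 1 transcript were called. For Cdkn2d the unadjusted limma p was 0.118 with the block (adjusted p = 0.9994) and 0.438 without it. The depth is unknown, so a value of 0 sets no limit.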
